A study of Homo sapiens with 6 samples.

Results

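The genes described here encode the proteins of the cytosolic ribosome. They were chosen by name: the letters RPS or RPL, an optional P, a number and at most the endings A, X, L, AL or L1, together with RPSA. The rule found 83 of the 12180 genes in the deposited gene table, 32 of the small and 51 of the large subunit. Of these, 77 are the classical ribosomal protein genes and 6 are paralogs, which are second copies that encode a close relative of the same protein (RPL36AL, RPL39L, RPL26L1, RPL7L1, RPL22L1 and RPS27L). The same names held 400 of the 33090 transcripts in the transcript table. Mitochondrial ribosomal proteins, RPS6 kinases and hyphenated readthrough genes were left out by the rule.

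TE1 is a cell line from a human esophageal squamous cell carcinoma (ESCC). Lentiviral vectors were used to make TE1 cells that overexpress FGL1 (FGL1-OE), a secreted fibrinogen-like protein, and control cells that carry random nonsense sequences (NC), whose genotype the labels give as WT. RNA-seq of poly(A)-selected RNA covered 3 NC and 3 FGL1-OE libraries, and whether these came from separate cultures is not stated, so the p-values measure only the spread between libraries. The comparison asks which mRNAs differ when FGL1 is overexpressed.

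Values are FPKM, which is scaled for gene length and library size. Levels can be set side by side between genes only as far as the length used fits the transcripts present. FGL1 itself had 0.0202, 0 and 0.106 FPKM in the NC libraries, against 33.5, 39.3 and 39.9 FPKM in the FGL1-OE libraries. The gene table summed to between 210904 and 226307 FPKM per library, and the read depth is unknown. The 3 NC libraries stood further apart than the 3 FGL1-OE libraries: over all genes tested, NC 1 and NC 2 correlated at r = 0.885 on the log2(FPKM + 1) scale, and any pair of FGL1-OE libraries at 0.981 or above. Of 13 squamous epithelium markers 10 were listed, and their FPKM summed to between 368 and 374 in NC and between 450 and 465 in FGL1-OE. KRT6A (means of 136 and 191 FPKM) and CDH1 (43.0 and 61.8 FPKM) were the 2 of 9 tested with an unadjusted p under 0.05 from limma, and KRT13 and KRT5 had log2 differences of -0.27 and -0.06. TP63 was at 0.299 to 0.779 FPKM over the 6 libraries, and SOX2, KRT14 and PKP1 are not among the genes listed. Of the fibroblast markers 3 of 7, of the leukocyte markers 1 of 6 (CD68) and of the endothelial markers 0 of 4 were listed. The part of these differences in the results was not tested.

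The ribosome joins amino acids in the order that an mRNA sets. Its small subunit reads the mRNA and its large subunit forms the peptide bond and lets the new chain out through an exit tunnel, and each protein is needed in about equal amounts. Most ribosomal protein mRNAs of vertebrates begin with a C followed by a run of pyrimidines, the 5′ terminal oligopyrimidine (TOP) tract, through which mTOR signalling and LARP1 adjust their translation together, so that mRNA level and protein output can part.

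The TOP tract was visible in the reference promoters. The sequences below, from RefSeq on GRCh38.p14, run from 15 bases before to the 15th base of the annotated transcript, with the unbroken run of C and T from the first base in capitals. They are shown for some of the members whose values the text turns on, most of them with a TOP tract, and for paralogs, beside the parent gene where the table has it.
RPS21: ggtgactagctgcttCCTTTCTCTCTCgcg
RPS10: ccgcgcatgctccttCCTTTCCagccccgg
RPS12: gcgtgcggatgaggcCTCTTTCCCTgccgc
RPL41: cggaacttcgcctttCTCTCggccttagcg
RPLP1: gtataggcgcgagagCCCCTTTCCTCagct
RPLP2: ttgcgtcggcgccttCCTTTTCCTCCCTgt
RPSA: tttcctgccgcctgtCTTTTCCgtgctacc
RPL17: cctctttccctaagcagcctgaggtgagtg
RPL29: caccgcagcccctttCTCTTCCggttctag
RPS3A: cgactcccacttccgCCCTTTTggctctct
RPL39: ttcttccgccagcttCCCTCCTCTTCCTTT
RPL22: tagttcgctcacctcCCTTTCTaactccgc
RPL22L1: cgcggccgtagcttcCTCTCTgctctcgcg
RPS27: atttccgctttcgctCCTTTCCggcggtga
RPS27L: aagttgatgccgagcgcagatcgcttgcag
RPL36A: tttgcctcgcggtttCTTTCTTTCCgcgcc
RPL36AL: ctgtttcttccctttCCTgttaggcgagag
RPL7L1: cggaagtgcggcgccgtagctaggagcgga
The windows of RPS21, RPLP1 and RPL29 are chr20:62387088-62387117 (plus strand), chr15:69452803-69452832 (plus strand) and chr3:51995881-51995910 (minus strand).

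A start was counted as a TOP start when its first base was C and at least 5 pyrimidines followed one another from there. The reference table held 83 starts for 67 of the members and no entry for the other 16, RPS2 among them. Of these starts 47 (56.6%), 1 in each of 47 genes, had a TOP tract, against 4.07% of all 35116 annotated starts and 5.14% of those of genes in the table. The run was 5 to 19 bases long with a median of 8, and RPL39 had the 19. Of the paralogs with an entry, RPL22L1 had a TOP start, and RPL26L1, RPL7L1, RPS27L and RPL36AL had none. Nor did RPL17 or the 3 starts of RPL32. The call rests on the annotated first base alone. In RPL17 a run of pyrimidines ends a few bases before it, so a tract at a start other than the annotated one would be missed.

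Motifs were searched on both strands of 300-base promoters (250 bases before and 50 from the first base), with overlaps between motifs allowed. CCGGAAG, the core bound by ETS factors such as GABPA, lay in 33.7% of member promoters against 17.2% of the promoters of genes in the table and 10.3% of all promoters. AAGATGG, a core of YY1 sites, lay in 10.8%, against 7.16% and 5.84%. GGGCGG, bound by SP1, lay in 54.2%, below the 68.0% of genes in the table and above the 45.0% of all promoters. TATAAA lay in 7.23%, above the 5.77% of genes in the table and below the 11.5% of all promoters. Such a match is a run of letters and not a binding site.

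Ribosomal protein mRNAs were among the most abundant mRNAs of TE1 cells. The median of the members' mean level over the 6 libraries was 139 FPKM, against 5.80 FPKM over all genes tested, 75 of the 83 were among the 1000 genes of highest mean, and no member was listed at 0 in any library. The order of the highest levels was RPS2 (806 FPKM), RPS10 (803), RPL41 (799), RPS21 (797), RPS12 (754), RPL12 (572), RPL7A (547), RPL19 (497), RPL35 (480) and RPS27 (479), and 5 members were among the 20 most abundant genes. The first 4 differed by less than 10 FPKM, far less than the spread of each over the libraries, and their order is not resolved. Although the proteins are needed in near equal numbers, the FPKM of the 77 classical genes spanned 55.6-fold. It ran from RPS2 down to RPS29 at 14.5 FPKM, with the middle 50% between 92.8 and 276 FPKM. FPKM depends on the length taken for a gene, and RPS29 has listed transcripts of 296 and 7062 bases. How far such lengths enter the span was not tested. Paralogs lay lower, from RPS27L at 5.01 FPKM to RPL22L1 at 10.7, RPL7L1 at 16.5, RPL26L1 at 23.6 and RPL39L at 32.6, except RPL36AL at 209 FPKM. The 47 genes with a TOP start had a median mean level of 155 FPKM. The 20 members without one at an annotated first base had 110 FPKM, 4 of the 20 being paralogs.

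**Figure D1:**
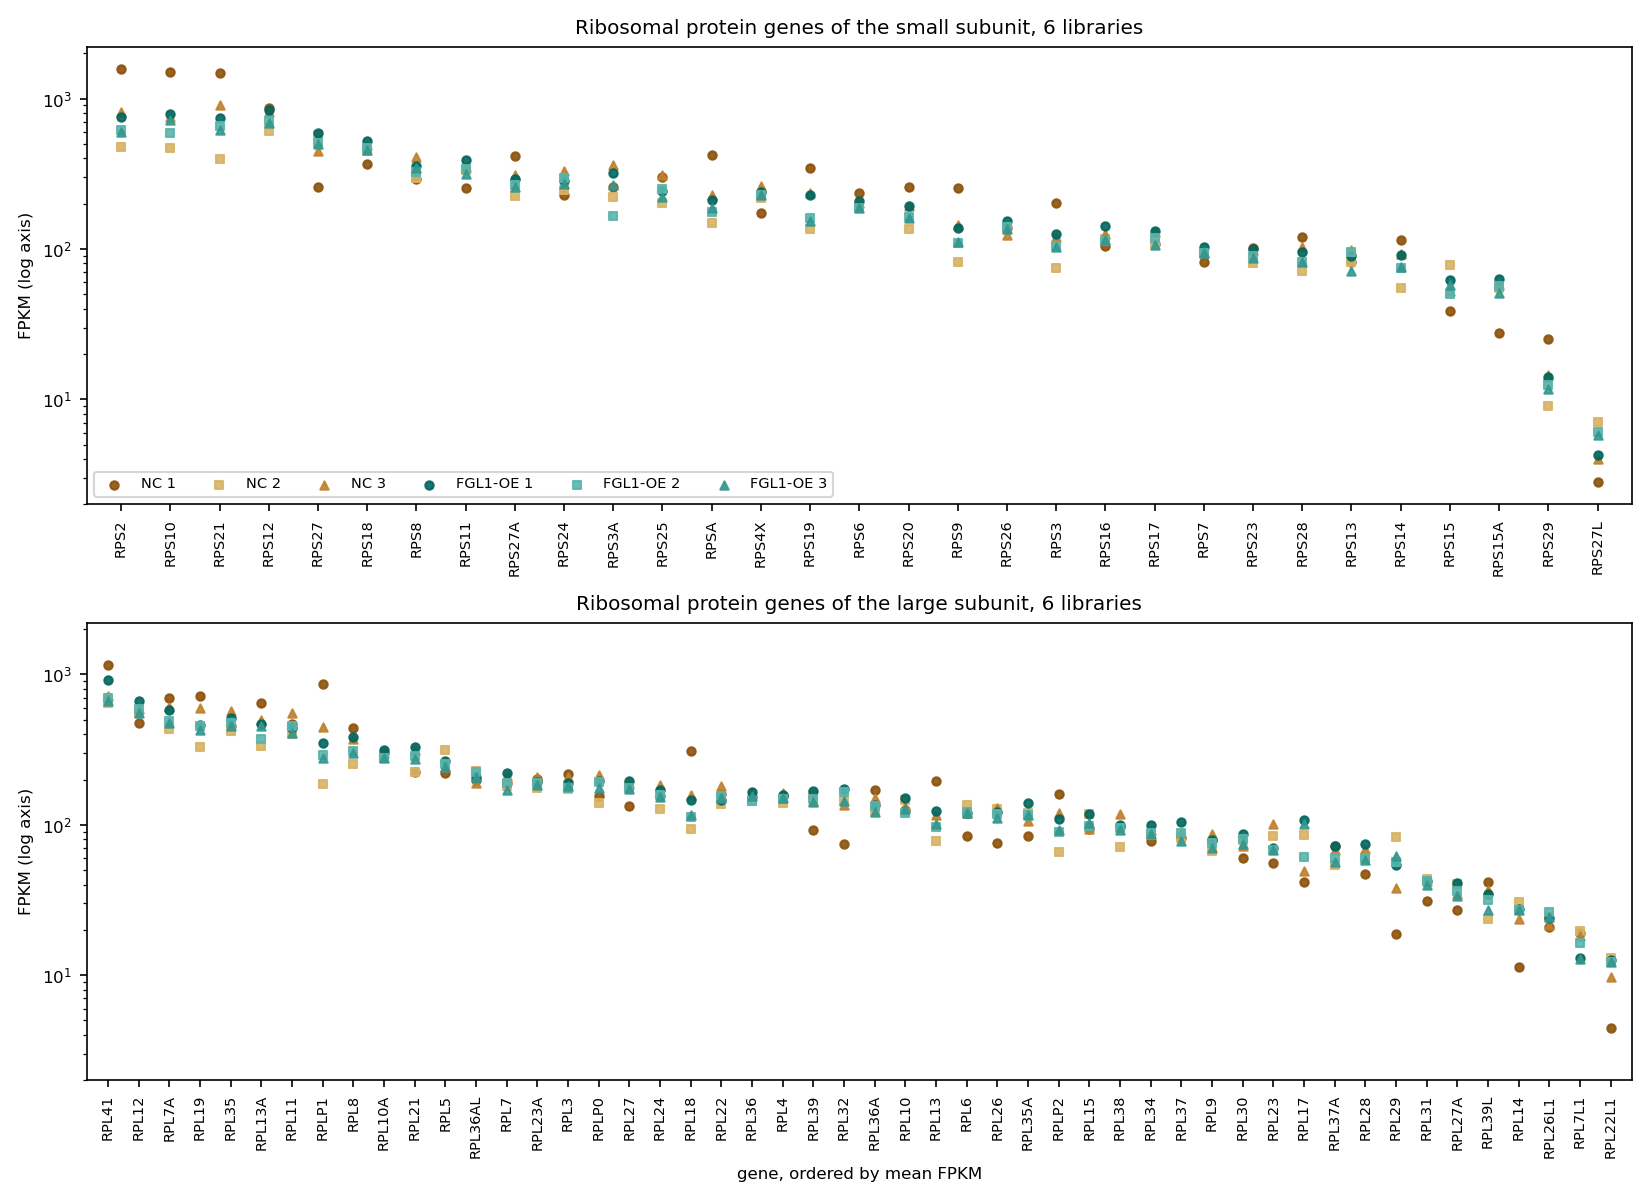
FPKM (log axis) of 81 ribosomal protein genes in each of the 6 libraries, with small subunit genes above and large subunit genes below, ordered by mean FPKM. NC libraries are brown and FGL1-OE libraries green. The FGL1-OE libraries lie close together for most genes, whereas NC 1 and NC 2 often mark the 2 ends, as for RPS2 at 1583 and 473 FPKM.

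No ribosomal protein gene passed the test between FGL1-OE and NC. With limma and Benjamini-Hochberg adjustment over the 12017 genes tested, 0 of 83 members had an adjusted p under 0.05 (the smallest was 1), where 0.00832% of all genes did, which is FGL1 alone. At an unadjusted p under 0.05, 0 members were higher in FGL1-OE (1.21% of all genes) and 1 was lower (0.807% of all genes). With an ordinary linear model in place of limma the counts were also 0 and 1, the share of all genes under that model not being given here. In RNA of whole cultures, fewer cells with an mRNA and less of it per cell cannot be told apart. The groups did not overlap with FGL1-OE higher in 1 member (1.2%, against 4.09% of all genes) and with FGL1-OE lower in 1 member (1.2%, against 3.06%).

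The median log2 difference of the 83 members, FGL1-OE minus NC, was -0.012, beside 0.016 over all genes tested, and 39 members (47.0%) were above 0 beside 53.7% of all genes. Differences on the log2(FPKM + 1) scale ran from -0.45 for RPLP1 to 0.63 for RPL17. What the 3 libraries against 3 could resolve is given by the 95% intervals, which reached a median of 0.43 to either side of the estimate, and 0.33 to 1.13 over the members. For 68 of the 83 members (81.9%, beside 90.0% of all genes) the whole interval lay within 1 log2 unit of 0, so that a 2-fold change in either direction lay outside it. For the others, RPLP1, RPS2, RPS10, RPS21 and RPL29 among them, the interval reached past 1 log2 unit.

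**Figure D2:**
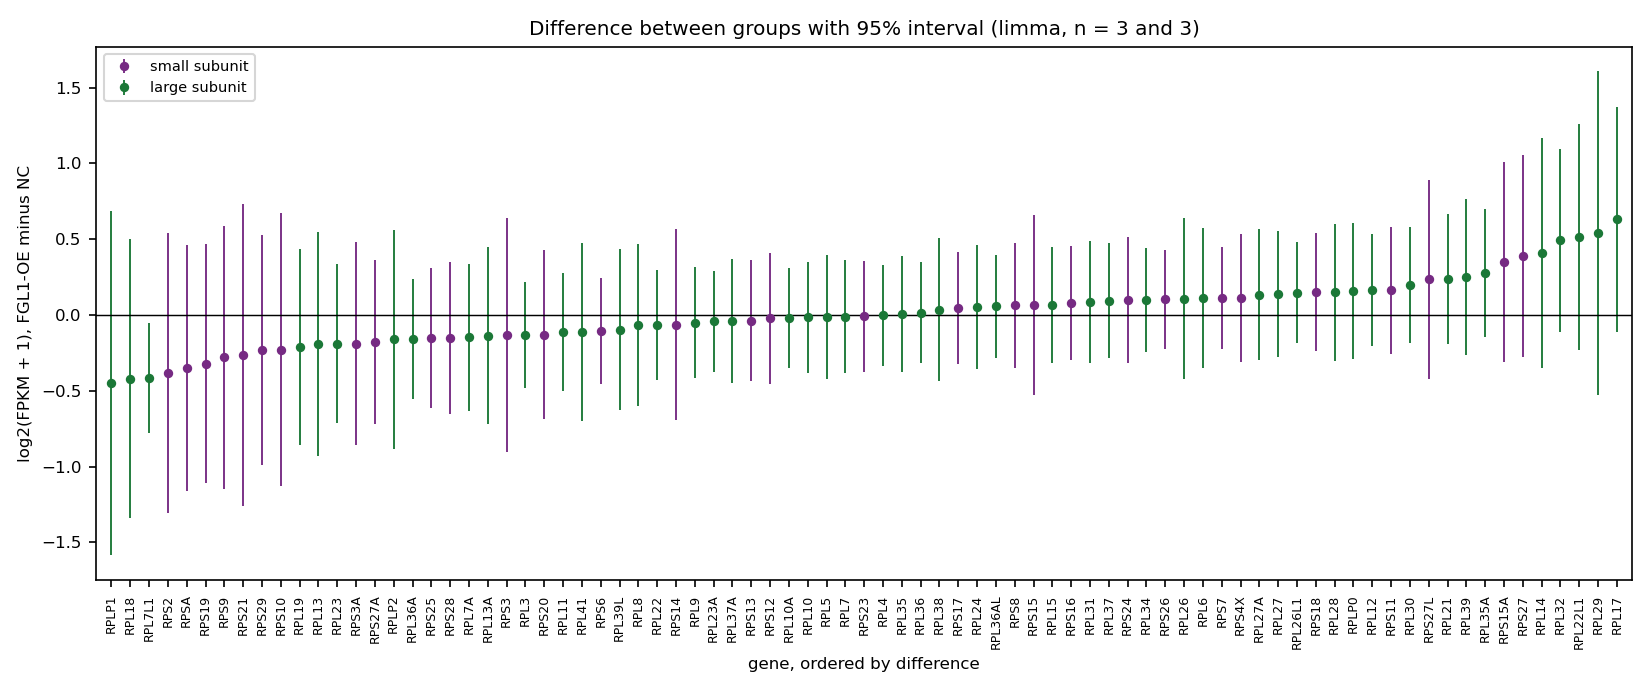
Difference of log2(FPKM + 1), FGL1-OE minus NC, of 81 ribosomal protein genes, each with its 95% interval from limma (n = 3 and 3), ordered by size, with small subunit genes purple and large subunit genes green. Every interval but that of RPL7L1 crosses 0, from RPLP1 at -0.45 to RPL17 at 0.63.

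RPL7L1, the paralog of RPL7 and a protein of pre-ribosome assembly, was the lower member (chr6:42847356-42857663 on GRCh37). NC 1 to 3 held 19.2, 19.5 and 18.2 FPKM and FGL1-OE 1 to 3 held 12.9, 16.4 and 12.9 FPKM. All FGL1-OE values were below all NC values. The log2 difference was -0.41 (SE 0.15, 95% interval -0.78 to -0.05, limma unadjusted p = 0.029, adjusted p = 1, exact two-sided permutation p = 0.1, the smallest that 3 against 3 allow). Without NC 3, FGL1-OE 1 or FGL1-OE 3 the unadjusted p was no longer under 0.05, while the difference stayed between -0.52 and -0.36 whichever library was left out.

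RPL32, a large subunit protein, was the member with all FGL1-OE values above all NC values (chr3:12875984-12883087 on GRCh37), and it was singled out after its values were seen. It had 74.9, 143 and 136 FPKM in the NC libraries, against 173, 166 and 143 FPKM in the FGL1-OE libraries, so that NC 2 and FGL1-OE 3 all but met and NC 1 lay far below. The log2 difference was 0.49 (SE 0.26, limma unadjusted p = 0.095, adjusted p = 1). RPL17, at the rim of the exit tunnel, had the largest positive difference and was likewise singled out after its values were seen. It had 41.6, 85.0 and 49.6 FPKM in the NC libraries, against 107, 61.0 and 101 FPKM in the FGL1-OE libraries, and the groups overlapped through NC 2 and FGL1-OE 2. The readthrough gene RPL17-C18orf32, which contains the exons of RPL17, was listed at 0 in every NC library and at 0 to 8.08 FPKM in FGL1-OE. With it added, RPL17 had 41.6, 85.0 and 49.6 FPKM in the NC libraries, against 112, 69.1 and 101 FPKM in the FGL1-OE libraries, and the overlap remained. With no library left out, the log2 difference of RPL17 was 0.63 (SE 0.32, limma unadjusted p = 0.084), and it did not pass the adjusted test. Leaving out FGL1-OE 2, the library that made the overlap, removed it by construction. The unadjusted p from limma was then under 0.05.

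The small subunit had a median log2 difference of -0.038 with 13 of 32 genes above 0, and the large subunit 0.007 with 26 of 51 above 0. Members of the small subunit summed to 10749, 6496 and 8804 FPKM in NC 1 to 3 and to 8658, 7369 and 7375 FPKM in FGL1-OE 1 to 3. Members of the large subunit summed to 10684, 8339 and 10151 FPKM in NC and to 10149, 9023 and 8799 FPKM in FGL1-OE. In both subunits NC 1 was the highest library, NC 2 the lowest, and the FGL1-OE libraries lay between them. The small subunit made up 50.2%, 43.8% and 46.4% of member FPKM in NC and 46.0%, 44.96% and 45.6% in FGL1-OE. All members together took 10.2%, 6.56% and 8.93% of the FPKM of the gene table in NC 1 to 3 and 8.41%, 7.66% and 7.52% in FGL1-OE 1 to 3. The means, 8.55 ± 1.83% and 7.86 ± 0.476% (SD, n = 3 each), differed by -0.684 percentage points, less than the SD of NC. The difference turned to 0.123 points without NC 1 and grew to -1.68 points without NC 2.

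The P stalk (RPLP0, RPLP1, RPLP2 and RPL12), which recruits elongation factors to the large subunit, had 0 of 4 genes past an unadjusted p under 0.05. RPLP1 (chr15:69745123-69748533 on GRCh37) had 869, 188 and 445 FPKM in the NC libraries, against 352, 292 and 277 FPKM in the FGL1-OE libraries. RPLP2 had 161, 65.8 and 120 FPKM in the NC libraries, against 110, 89.4 and 91.9 FPKM in the FGL1-OE libraries. For both, all 3 FGL1-OE values fell between NC 2 and NC 1. RPLP0, the anchor on which RPLP1 and RPLP2 sit as dimers, had 155, 140 and 216 FPKM in the NC libraries, against 195, 193 and 174 FPKM in the FGL1-OE libraries. The log2 differences of RPLP1, RPLP2 and RPLP0 were -0.45 (SE 0.49), -0.16 (SE 0.31) and 0.16 (SE 0.19).

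RPL5 and RPL11 bind the 5S ribosomal RNA and, outside the ribosome, inhibit MDM2, the ubiquitin ligase of p53. RPL5 had 221, 316 and 241 FPKM in the NC libraries, against 264, 255 and 243 FPKM in the FGL1-OE libraries, a log2 difference of -0.01 (SE 0.17). RPL11 had 467, 401 and 550 FPKM in the NC libraries, against 440, 454 and 409 FPKM in the FGL1-OE libraries, a log2 difference of -0.11 (SE 0.17). Neither passed the test, and their groups overlapped. RPS2 and RPS3 line the mRNA entry channel and had log2 differences of -0.38 (SE 0.40) and -0.13 (SE 0.33). RPS2 had 1583, 473 and 817 FPKM in the NC libraries, against 753, 614 and 595 FPKM in the FGL1-OE libraries, again with every FGL1-OE value between NC 2 and NC 1.

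RPS27A, which is made as a fusion with ubiquitin, had 418, 225 and 311 FPKM in the NC libraries, against 293, 268 and 257 FPKM in the FGL1-OE libraries. RPSA, also known as the laminin receptor, had 423, 148 and 229 FPKM in the NC libraries, against 210, 176 and 187 FPKM in the FGL1-OE libraries. RPS6, the target of S6 kinase, had 234, 192 and 203 FPKM in the NC libraries, against 208, 188 and 187 FPKM in the FGL1-OE libraries. The FGL1-OE values of RPS27A and RPSA lay inside the NC range and those of RPS6 overlapped its lower end. Of the 9 proteins at the exit tunnel and its rim, 5 were above 0 and their median log2 difference was 0.007. Of the 17 genes mutated in Diamond-Blackfan anaemia, an inherited failure of red cell production, 10 were above 0, with a median of 0.046 and a range from -0.42 (RPL18) to 0.28 (RPL35A). Neither group held a gene with an unadjusted p under 0.05.

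The members spread more within NC than within FGL1-OE. On the log2(FPKM + 1) scale the median SD of a member was 0.28 over the NC libraries and 0.13 over the FGL1-OE libraries, beside 0.31 and 0.12 for all genes tested. The highest value among the 3 libraries was 1.48 times the lowest for the median member in NC and 1.19 times in FGL1-OE, and at most 4.62 times and 1.94 times. NC 1 and NC 2 differed by over 2-fold (on FPKM + 1) in 20 members (24.1%, beside 19.0% of all genes), 14 of them higher in NC 1 and 6 higher in NC 2. NC 1 held the highest of the 6 values in 28 members, FGL1-OE 1 in 26, NC 3 in 17, NC 2 in 11 and FGL1-OE 2 in 1. Over the 12017 genes tested, these libraries held the highest value in 3531, 1250, 1158, 4319 and 875. The lowest value lay in NC 2 in 38 members, in NC 1 in 33, in FGL1-OE 3 in 8 and in NC 3 and FGL1-OE 2 in 2 each. Over all genes tested, NC 2 held the lowest value in 3693 and NC 1 in 4967. FGL1-OE 3, NC 3 and FGL1-OE 2 held it in 631, 675 and 875. The 3 FGL1-OE values all fell between NC 1 and NC 2 in 44 members (53.0%, beside 51.2% of all genes).

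The members did not move as 1 block between NC 1 and NC 2. NC 1 exceeded NC 2 by 2.20 on the log2(FPKM + 1) scale for RPLP1, 1.90 for RPS21, 1.74 for RPS2, 1.72 for RPL18 and 1.67 for RPS10. At the other end, the difference was -2.08 for RPL29, -1.37 for RPL14 and -1.35 for RPL22L1. RPL29 (chr3:52027616-52029958 on GRCh37) had 18.8, 82.9 and 37.9 FPKM in the NC libraries, against 53.8, 56.4 and 62.1 FPKM in the FGL1-OE libraries, a log2 difference of 0.54 (SE 0.46). NC 1 was thus the highest library of RPLP1 and the lowest of RPL29, 2 large subunit genes with TOP tracts, and the FGL1-OE values of both lay between NC 1 and NC 2. RPL14 and RPL18 were chosen after their values were seen.

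**Figure D3:**
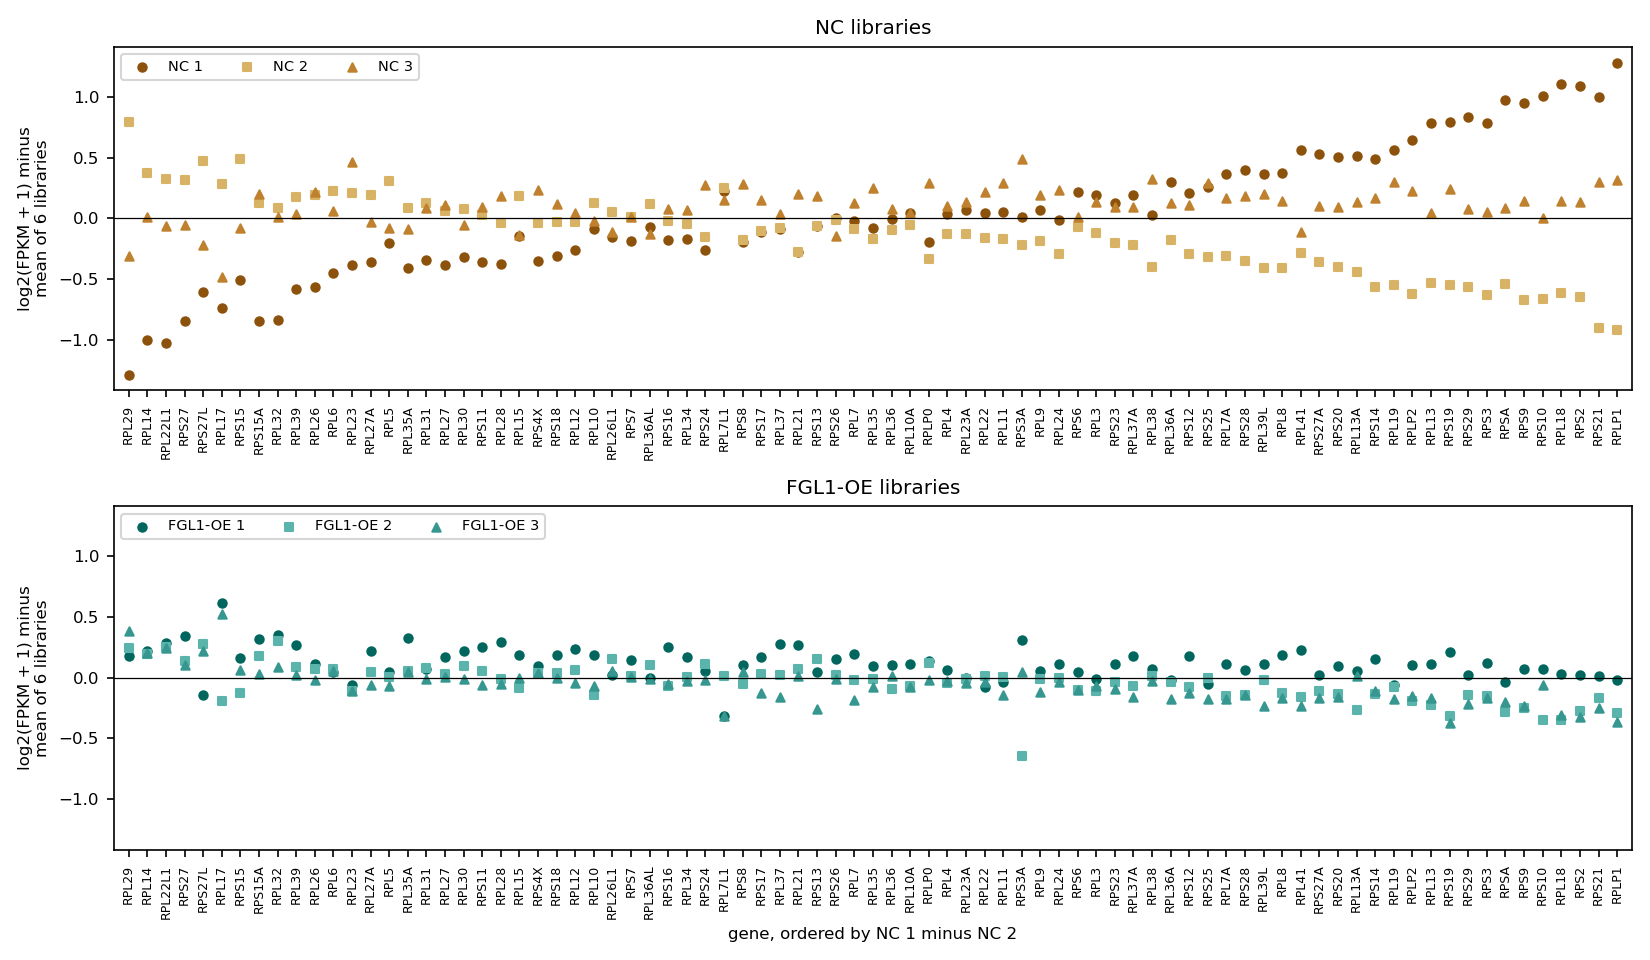
Deviation of each library from the gene's mean over the 6 libraries on the log2(FPKM + 1) scale, NC libraries above and FGL1-OE libraries below, with 81 genes ordered by NC 1 minus NC 2. NC 1 and NC 2 fan out in opposite directions at both ends, from RPL29 at -2.08 to RPLP1 at 2.20 between them, while the FGL1-OE libraries mostly stay near 0.

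Across genes, the difference between NC 1 and NC 2 ran with the GC content of the gene's main transcript over the whole table (r = 0.763, 11259 genes) and less closely over the members (r = 0.32, 82 genes with a sequence). Genes are not independent replicates, and all points share the same pair of libraries. Member GC contents ran from 39.3% to 63.1% with a median of 49.2%, near the 50.2% of all listed genes. The members' difference also ran with their mean level (r = 0.419, 83 genes, beside 0.0532 over all genes), and not with the share of the transcript's sequence that other genes hold (r = -0.00986, 82 genes). With the trend of GC content and length removed from each library, a step chosen after seeing the data, 0 members passed the adjusted test and RPL7L1 alone had an unadjusted p under 0.05. The part of base composition in the members' values was not tested further.

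How many members had a small p depended on NC 2. Without it, 8 members were higher (9.64%, beside 11.1% of all genes) and 14 lower (16.9%, beside 10.6%) at an unadjusted p under 0.05 from limma, and 0 at an adjusted p, the smallest being 0.195. The 8 were RPL29, RPL17, RPL22L1, RPL14, RPL32, RPS27, RPS27L and RPL35A, and the 14 included RPLP1, RPL18, RPS2, RPS21 and RPSA, which had the largest differences of the 14, and RPL19, which had the smallest p. When NC 1 was left out instead, RPL7L1 and RPL23 were lower (2.41%, beside 1.23% of all genes) and 0 members higher (beside 1.53%), and RPLP1, RPS2, RPS10, RPS21 and RPSA turned from negative to positive differences. For these 5 genes the sign of the difference thus depended on NC 1. The turn was not particular to them: other members, RPL13, RPL18 and RPS9 among them, turned likewise, while others, such as RPL11 and RPS3A, stayed negative. How many of all genes turned was not counted.

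The share of a paralog in the summed FPKM of the pair was compared between the groups. FPKM depends on the length taken for each gene, so the share does not by itself give the balance of the 2 mRNAs. The main transcripts of RPL7L1 and RPL7, for example, have 4476 and 1101 bases. RPL36AL held the larger part of the FPKM of its pair, with 54.0%, 65.2% and 55.9% in NC and 60.5%, 62.6% and 63.0% in FGL1-OE. RPL39L, known for its role in the male germ line, had 30.9%, 13.1% and 20.4% in NC and 17.1%, 17.5% and 16.1% in FGL1-OE. NC 1 and NC 2 held the extreme shares of both pairs, with the FGL1-OE libraries between them. The readthrough gene RPL36A-HNRNPH2, which shares exons with RPL36A, ranged over 7.48 to 42.7 FPKM in NC and 13.3 to 26.9 FPKM in FGL1-OE. RPL26L1 had 17.4 ± 3.91% and 17.6 ± 1.02% (SD, n = 3 each). RPL22L1 had 2.73%, 8.61% and 5.12% in NC and 7.92%, 7.31% and 7.51% in FGL1-OE, and RPS27L, a p53 target, had 1.07 ± 0.165% and 1.02 ± 0.254%. In these 5 pairs the groups overlapped (exact two-sided permutation tests, p between 0.4 and 0.9).

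RPL7L1 had 9.14%, 9.69% and 7.97% of its pair in NC and 5.53%, 7.95% and 7.05% in FGL1-OE. These shares hold the same RPL7L1 values that singled the gene out, so their separation is not a second result. The lowest NC share and the highest FGL1-OE share were 7.97% and 7.95%, and the means were 8.94 ± 0.878% and 6.84 ± 1.22% (exact two-sided permutation p = 0.1, the smallest possible here, over 6 pairs compared). RPL7, the parent, had 191, 182 and 211 FPKM in the NC libraries, against 221, 190 and 170 FPKM in the FGL1-OE libraries, a log2 difference of -0.01 (SE 0.16).

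**Figure D4:**
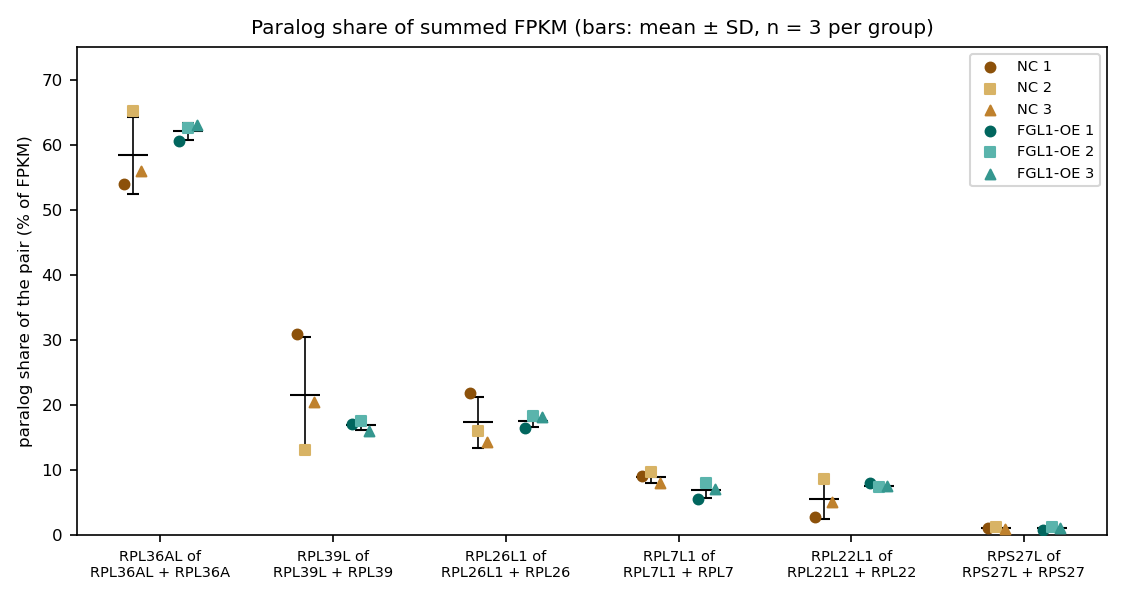
Share of each paralog in the summed FPKM of paralog and parent gene (%), in each NC (brown) and FGL1-OE (green) library, with the mean and SD of each group in black (n = 3). RPL36AL lies at 54.0% to 65.2% and RPS27L near 1%, and the 2 groups overlap in every pair except that of RPL7L1.

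Many ribosomal protein genes have processed pseudogenes, and reads of near-identical copies cannot always be placed. In the 82 members whose main transcript matched GENCODE v29, a median of 39.0% of its 31-base words also occurred in transcripts of other genes, and in 32 members over 50% did. The share was 84.6% for RPS3A, 84.5% for RPS10, 79.5% for RPS2, 78.8% for RPSA and 77.5% for RPL17, against 11.5% for RPS21 and 17.9% for RPLP1. How the authors assigned such reads is not given in the sources used here. More of the sequence of the first 5 than of the last pair is open to misplaced reads, and the effect on the levels was not tested. Between libraries the last pair was not the steadier: the SE of the log2 difference was 0.43 for RPS21 and 0.49 for RPLP1. It ran from 0.29 (RPS3A) to 0.40 (RPS2) over the first 5. Between NC 1 and NC 2, RPS2, which shares words with 51 other genes, differed by 1.74 and RPS21, which shares words with 1, by 1.90 on the log2 scale. They are 2 genes among the 82, and the part of shared sequence in this difference was not tested.

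In the transcript table, 394 of the 400 transcripts were tested among 30330. At an adjusted p under 0.05, 0 of 394 passed (0.0165% of all transcripts did, which is 5), and the smallest adjusted p was 0.703. At an unadjusted p under 0.05, 12 (3.05%) were higher in FGL1-OE, beside 2.05% of all transcripts, and 8 (2.03%) were lower, beside 1.48%. With an ordinary linear model these counts were 13 and 2. The share of all transcripts under that model is not given here, so the 13 and 2 are not read as a result about the members. The groups did not overlap with FGL1-OE higher in 23 (5.84%, beside 4.65%) and with FGL1-OE lower in 9 (2.28%, beside 3.57%). The median log2 difference was 0.026, beside 0.017 for all transcripts. Transcript FPKM of a gene did not add up to its gene FPKM, the ratio of the sum to the gene value being between 0.264 and 30.3 with a median of 2.72, so levels are not compared between the tables.

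RPS3A, a small subunit protein, had the member transcript with the smallest p among those that were lower. RPS3A-201 (chr4:152020725-152025804 on GRCh37) had 610, 497 and 604 FPKM in the NC libraries, against 283, 272 and 150 FPKM in the FGL1-OE libraries. The 2 groups were well apart, with a log2 difference of -1.33 (SE 0.32, limma unadjusted p = 0.006, adjusted p = 1, exact two-sided permutation p = 0.1). The gene itself had 260, 221 and 361 FPKM in the NC libraries, against 319, 164 and 266 FPKM in the FGL1-OE libraries, and its groups overlapped. Other transcripts of RPS3A, chosen after their values were seen, differed between libraries. RPS3A-210 had 0, 18.01 and 41.8 FPKM in the NC libraries, against 521, 0 and 322 FPKM in the FGL1-OE libraries. RPS3A-213 was listed at 119 FPKM in FGL1-OE 2 and at 0 in the other 5 libraries. RPS3A-201 made up 96.1%, 91.5% and 65.9% of the summed transcript FPKM in NC and 33.5%, 63.4% and 19.7% in FGL1-OE. Of its 31-base words, 7.30% occurred in no other transcript of the gene.

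RPL29 encodes a large subunit protein, and 7 of its transcripts were listed. RPL29-204 had 6.57, 0 and 0 FPKM in the NC libraries, against 39.4, 12.4 and 9.95 FPKM in the FGL1-OE libraries, a log2 difference of 3.21 (SE 0.93, limma unadjusted p = 0.013, adjusted p = 1). RPL29-201, the leading transcript in all 6 libraries, had 28.3, 160 and 70.1 FPKM in the NC libraries, against 80.9, 116 and 126 FPKM in the FGL1-OE libraries. The groups of RPL29-204 did not overlap, while those of RPL29-201 did and followed the NC 1 to NC 2 range of the gene. RPL29-206 had 2.76, 2.75 and 3.78 FPKM in the NC libraries, against 4.87, 3.95 and 4.995 FPKM in the FGL1-OE libraries, again without overlap (log2 difference 0.46, SE 0.24, limma unadjusted p = 0.1). RPL29-209 had 7.58, 45.7 and 22.5 FPKM in the NC libraries, against 13.1, 9.36 and 13.1 FPKM in the FGL1-OE libraries. RPL29-202, RPL29-203 and RPL29-208 stayed under 10 FPKM in every library, and RPL29-208 was listed above 0 in FGL1-OE 1 alone. Of the words of RPL29-204, 4.22% were found in no other transcript of RPL29.

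Other transcripts had lower values in FGL1-OE, some of them with a split within a group. RPL31-206 had 19.1, 66.2 and 26.4 FPKM in the NC libraries, against 0, 0 and 15.3 FPKM in the FGL1-OE libraries. RPL3-202 had 95.8, 25.1 and 20.5 FPKM in the NC libraries, against 15.5, 15.01 and 6.11 FPKM in the FGL1-OE libraries, and NC 1 stood apart from the rest. RPL26-206 had 48.5, 57.9 and 43.2 FPKM in the NC libraries, against 22.5, 37.4 and 32.2 FPKM in the FGL1-OE libraries. RPL7L1-201 had 16.3, 16.8 and 23.3 FPKM in the NC libraries, against 1.56, 17.96 and 2.18 FPKM in the FGL1-OE libraries, so that FGL1-OE 2 lay within the NC range, and in that library the gene RPL7L1 was also nearest to NC. RPL7L1-208 made up 51.8%, 48.4% and 30.2% of the gene's summed transcript FPKM in NC and 78.1%, 38.6% and 82.2% in FGL1-OE. That sum includes RPL7L1-201, so a lower RPL7L1-201 by itself raises the share of RPL7L1-208. Only 0.776% of the 31-base words of RPL7L1-201 are absent from the other transcripts of the gene, and how far reads were assigned to one or the other was not tested. The gene and transcript values of RPL7L1 come from the same reads.

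Among transcripts with higher values in FGL1-OE, RPL23-205 was listed at 0 in every NC library and had 10.3, 2.22 and 2.27 FPKM with FGL1 overexpressed. RPLP0-225 had 7.56, 8.43 and 20.4 FPKM in the NC libraries, against 28.9, 37.7 and 21.2 FPKM in the FGL1-OE libraries. The groups of both were separate, by less than 1 FPKM for RPLP0-225. RPS27L-203 had 5.08, 4.93 and 11.7 FPKM in the NC libraries, against 14.8, 14.6 and 12.8 FPKM in the FGL1-OE libraries. RPL21-201 had 26.9, 40.2 and 43.7 FPKM in the NC libraries, against 111, 60.9 and 50.1 FPKM in the FGL1-OE libraries. None of these had an adjusted p under 0.05, and NC 3 was the NC library nearest to FGL1-OE in RPLP0-225, RPS27L-203 and RPL21-201. Further transcripts, RPL7-204, RPL3-206 and RPL26-204 with higher values and RPS10-202 with lower values in FGL1-OE, stayed under 6 FPKM in every library.

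**Figure D5:**
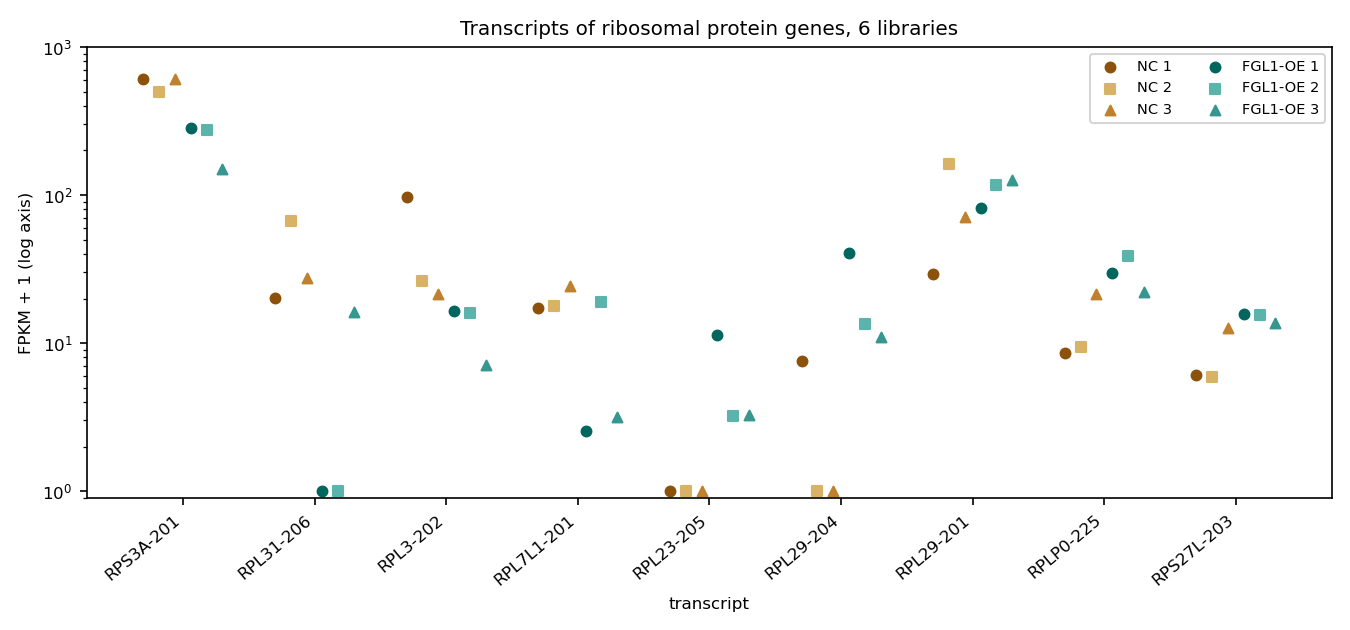
FPKM + 1 (log axis) of 9 named transcripts of ribosomal protein genes in each NC (brown) and FGL1-OE (green) library, with those of lower mean log2 level in FGL1-OE on the left and those of higher on the right. The groups of RPS3A-201 do not overlap, which the rule that named it required, while RPL7L1-201 splits within FGL1-OE.

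Transcript values varied more than gene values. For member transcripts the median SD of log2(FPKM + 1) was 0.596 over the NC libraries and 0.266 over the FGL1-OE libraries, against 0.28 and 0.13 for the member genes. The same transcript led its gene in all 3 NC libraries for 58 of the 83 genes, in all 3 FGL1-OE libraries for 71 and in all 6 for 54. These counts include 7 genes with 1 listed transcript, which leads by definition. In the other 76 the leader could change. Members had 1 to 13 listed transcripts with a median of 5, and 33 member transcripts were listed at 0 in at least 1 library. Over the 361 member transcripts with a sequence, a median of 6.33% of the 31-base words were found in no other transcript of the gene, so the split of reads between transcripts rests on few bases that tell them apart.

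The genes that work with ribosomal proteins were compared by lists. Of the other proteins of the ribosome with different names, neither FAU nor RACK1 had an unadjusted p under 0.05. FAU, which encodes RPS30, had 203, 61.6 and 124 FPKM in the NC libraries, against 101, 83.5 and 88.1 FPKM in the FGL1-OE libraries, with NC 1 the highest and NC 2 the lowest library, as for RPLP1 and RPS2. Of 18 other TOP mRNAs, mostly elongation and initiation factors, 1 was higher at an unadjusted p under 0.05 and 0 lower (beside 1.21% and 0.807% of all genes), with a median log2 difference of -0.008. The 1 was VIM, which encodes the intermediate filament vimentin, with 14.4, 13.8 and 17.9 FPKM in the NC libraries and 21.5, 24.4 and 20.02 FPKM in the FGL1-OE libraries (log2 difference 0.49, SE 0.16, limma unadjusted p = 0.018, adjusted p = 1).

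Of 55 listed ribosome assembly factors, 0 had an unadjusted p under 0.05, 37 were above 0 and the median log2 difference was 0.084. Of 17 genes of RNA polymerase I and its factors, which make ribosomal RNA, 0 had an unadjusted p under 0.05, and the differences ran from -0.68 (CD3EAP) to 0.19 (POLR1C) with a median of 0.098. Of 14 regulators of ribosomal protein mRNA, 0 had an unadjusted p under 0.05, and the differences ran from 0.017 (EIF4EBP1) to 0.96 (MYC) with a median of 0.10. LARP1, which binds TOP mRNAs, had 26.0, 23.7 and 24.1 FPKM in the NC libraries, against 27.1, 26.3 and 26.1 FPKM in the FGL1-OE libraries, a log2 difference of 0.10 (SE 0.14). MYC, which drives ribosome synthesis, had the highest difference of the list, 0.96 (SE 0.69), through 1 library: it had 2.15, 2.18 and 2.27 FPKM in the NC libraries, against 2.33, 2.21 and 21.5 FPKM in the FGL1-OE libraries. The members summed to 16174 FPKM in FGL1-OE 3, the library with the high MYC value. This was close to the 16392 FPKM of FGL1-OE 2, where MYC was low, and below the 18808 FPKM of FGL1-OE 1. Only 1 library had a high MYC value, and whether the members' sum follows MYC was not tested.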

How the data were processed

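The authors deposited FPKM values of 6 TE1 libraries, 3 NC and 3 FGL1-OE, for protein-coding genes and transcripts. The submitters' processing notes name StringTie and GRCh37, and the aligner is not given in the sources used here. Libraries were poly(A)-selected and stranded. The deposited tables also hold the authors' fold changes and p-values, which were not used.

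Genes and transcripts that averaged 0.5 FPKM or more were compared on log2(FPKM + 1) with limma 3.58.1 in R 4.3.3, two-sided, without covariates or scaling between libraries, and p-values were adjusted by Benjamini-Hochberg over each table at a threshold of 0.05. This scale understates changes of low values. Exact permutation tests used scipy 1.17.1 in Python 3.11.15. The fits were tested on simulated data with known changes. Low FPKM values showed no steps from which reads could be recovered, so depth is unknown and no counting interval is given. Transcript sequence came from GENCODE v29, where the transcript spans as many bases as in the tables (361 of 400), and start sites from RefSeq.

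The members and lists were chosen with earlier results of these data known. Named genes were FGL1, the 10 most abundant members, members with a small p and no overlap, paralogs with their parents, RPSA, RPLP0, RPLP1, RPLP2, RPL5, RPL11, RPS6, RPS27A and RPL29. Named transcripts were those of RPL29 and the largest differences without overlap at an unadjusted p under 0.05, up to 10 each way. Others were named after their values were seen. Some named items are not reported here. Alternatives were another pseudocount, other filters, scaling to a common sum, quantile normalization, a replicate block, an ordinary linear model and leaving out each library.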

Additional observations from a re-analysis of the deposited data

How the results depend on the processing

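The count of member genes with an adjusted p under 0.05 was 0 under every alternative run. With each library left out in turn, member genes at an unadjusted p under 0.05 numbered 0 to 8 higher and 0 to 14 lower, both highest without NC 2 (9.64% and 16.9%, beside 11.1% and 10.6% of all genes). The member median change ran from -0.0579 to 0.0363 over the libraries left out. Member transcripts with an adjusted p under 0.05 numbered 0 to 1, those at an unadjusted p under 0.05 numbered 7 to 25 higher and 2 to 41 lower, and the highest counts were without NC 2 (6.33% and 10.4%, beside 4.25% and 4.65% of all transcripts) except the 1 adjusted call, which was made without NC 1. In place of 8, the lower transcripts numbered 4 with a pseudocount of 0.1 and 4 at a mean of at least 1 FPKM. They numbered 4 with scaling to a common sum and 2 with an ordinary linear model. Counts over all transcripts at these settings are not given here. Whether the fall is particular to the members, and its cause, were not tested. The summed member share differed by -1.68 to 0.123 percentage points over the libraries left out.

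Whether equal replicate numbers mark paired libraries was not settled. The deviations of NC and FGL1-OE libraries of the same number correlated at 0.345, 0.282 and -0.0614. Those of unequal numbers ran from -0.37 to 0.136, and 2 of 3 FGL1-OE libraries correlated best with their own number. The main fits took the libraries as unpaired. The replicate block left 0 member genes and 0 member transcripts with an adjusted p under 0.05. It left 1 member gene and 6 member transcripts lower at an unadjusted p under 0.05. Counts over all genes and transcripts with the block are not given here, so these are not read as a result about the members.

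Of the named results, 33 values turned in sign and 672 did not change their call or direction. RPS12 turned to 0.0617, RPL5 to 0.0231 and RPL35 to -0.0118 with quantile normalization, RPL35 to -0.00066 with scaling to a common sum, and RPL36AL to -0.0309 after removal of the trend of GC content and length. With each library left out in turn, the log2 differences ran from -0.80 to 0.065 for RPS2, -0.62 to 0.22 for RPS10, -0.28 to 0.15 for RPL41, -0.78 to 0.17 for RPS21, -0.17 to 0.079 for RPS12, -0.54 to 0.019 for RPL19, -0.079 to 0.13 for RPL35, -0.33 to 0.059 for RPL39L, -0.010 to 0.53 for RPS27L, -0.15 to 0.24 for RPL26, -0.11 to 0.078 for RPL7, -0.16 to 0.027 for RPL22, -0.70 to 0.052 for RPSA, -1.02 to 0.077 for RPLP1, -0.51 to 0.12 for RPLP2, -0.12 to 0.14 for RPL5, -0.22 to 0.0033 for RPL11, -0.40 to 0.040 for RPS27A, -0.0059 to 1.23 for RPL29-201 and -0.46 to 0.49 for RPL29-203. NC 1 or NC 2 was the library left out at most of these ends. Without a read depth, the precision of any single value is unknown.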
